A study of Mus musculus with 8 samples.

Results

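Genes of the acute-phase response, namely Saa1, Saa2, Saa3, Orm1, Lcn2, Hp, Cp, Steap4 and Chi3l1, were followed in RNA from whole mouse lung before and after birth, in controls and in mice without Wfdc2. These 9 of the 25965 genes quantified were selected by symbol with measured values of the same libraries in view, which can include every contrast below, so their values are given as a description and carry no test. Total lung RNA was sequenced before birth (embryonic stage E18.5) and after birth (postnatal stage P1.5) from Wfdc2 +/+ mice and from Wfdc2 GFP/GFP mice, with 2 libraries in each of the 4 groups. The GFP allele carries an IRES-EGFP cassette in place of part of exon 1 and all of exon 2 of Wfdc2, so that GFP/GFP animals lack the gene in every cell from conception. It was made in TT2 embryonic stem cells aggregated with ICR morulae, and the selection cassette was removed by a cross to CAG-Cre mice, which express Cre in all tissues. The +/+ animals carry neither the GFP allele nor any other engineered allele named in the labels. The paper describes them as littermate controls at both stages.

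The acute-phase response is the rapid change in secreted proteins that follows infection or tissue injury. Interleukin 6, interleukin 1 and tumour necrosis factor, acting through STAT3, C/EBP and NF-kB factors, switch on genes for serum amyloid A, haptoglobin, orosomucoid and other proteins, in the liver for the circulation and, for several of these genes, locally in the epithelium of lung and gut. Lipocalin 2, haptoglobin, ceruloplasmin and the reductase Steap4 handle iron, haem or copper, and withholding iron from microbes is a known part of mucosal defence.

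Wfdc2 itself had between 8038 and 32845 reads in the +/+ libraries and between 0 and 12 in the GFP/GFP libraries, so every library matched its genotype label. Library totals ran from 19457647 to 37209333 reads, and the limit of detection was set at 3 reads, which equal 0.0806 to 0.154 RPM (reads per 1000000 reads of the library). In all 4 groups replicate 1 was the library with Xist RNA (at least 4121 reads, against at most 13) and replicate 2 the library with RNA of the Y-linked gene Ddx3y (at least 972 reads, against at most 3), so replicate number and sex cannot be told apart and the genotypes were balanced for both. In whole lung, fewer cells of a type and less RNA per cell cannot be told apart either. The same holds for the cell of origin. All 6 general epithelial markers (Cdh1, Epcam, Krt8, Krt18, Krt19 and Nkx2-1) were detected in every library, but nothing in these libraries assigns the 9 genes to the epithelium.

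Some libraries stood apart, and the members were affected. After centring, 3.96% of the 15627 genes tested were over 2-fold apart between replicates of E18.5 +/+ and 11.6% between those of P1.5 GFP/GFP, against 24.4% for E18.5 GFP/GFP and 28.4% for P1.5 +/+. Replicate 1 of E18.5 GFP/GFP was low in secretory transcripts, with 1571 reads of the club cell gene Scgb1a1 against 17832 to 29018 in the other E18.5 libraries, and it alone had a gene other than Sftpc, the surfactant protein C gene, as its most abundant. It also had 90980 reads of Xist, against 4121 to 14602 in the replicates 1 of the other groups. Replicate 1 of P1.5 +/+ had 16748 reads of the neutrophil gene S100a8 against 3587 in replicate 2, whereas replicate 2 had 1030 reads of albumin, a hepatocyte gene, against 8. The differences of the members and the medians of the gene lists are given with and without these libraries where that moved them.

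The promoters of the members that could be looked up are shown first, because genes of this response are known targets of C/EBP, NF-kB and STAT3. The set of RefSeq promoters used here (GRCm38.p6) held 7 of the 9 members, Saa1, Saa2, Saa3, Lcn2, Cp, Chi3l1 and Steap4, and not Hp or Orm1. Each promoter had 300 bases, from 250 bases before the start of the gene to 50 after it. There were 8 promoters in all because Cp has 2 starts. They were searched on both strands for TTGCNNAA (C/EBP), TTCNNNGAA (STAT) and the NF-kB consensus, and capitals in the sequences mark the matches. Saa1 and Saa2 lie head to head in the serum amyloid A cluster on chromosome 7, where Saa3, Saa4, Saa1 and Saa2 occupy 42317 bases (chr7:46711998-46754314). Their promoters, chr7:46742931-46743230 on the minus strand and chr7:46751583-46751882 on the plus strand, were 95.3% identical (14 edits over 300 bases) and held the same C/EBP match.
Saa1: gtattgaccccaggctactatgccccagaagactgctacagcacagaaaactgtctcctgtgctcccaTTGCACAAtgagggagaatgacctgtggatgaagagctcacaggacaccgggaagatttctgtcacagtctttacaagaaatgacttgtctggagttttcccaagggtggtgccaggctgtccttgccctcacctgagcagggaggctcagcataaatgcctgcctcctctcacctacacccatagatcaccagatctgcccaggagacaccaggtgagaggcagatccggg
Saa2: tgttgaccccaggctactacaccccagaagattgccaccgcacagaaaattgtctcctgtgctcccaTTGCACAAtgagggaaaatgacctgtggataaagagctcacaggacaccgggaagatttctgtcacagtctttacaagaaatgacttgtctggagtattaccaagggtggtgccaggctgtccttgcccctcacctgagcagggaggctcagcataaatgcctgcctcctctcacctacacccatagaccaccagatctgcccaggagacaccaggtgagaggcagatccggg
Saa3 (chr7:46715627-46715926, minus strand) and Lcn2 (chr2:32387690-32387989, minus strand), the strongly expressed members with the largest differences at P1.5, each had 1 C/EBP match and no match to the other motifs.
Saa3: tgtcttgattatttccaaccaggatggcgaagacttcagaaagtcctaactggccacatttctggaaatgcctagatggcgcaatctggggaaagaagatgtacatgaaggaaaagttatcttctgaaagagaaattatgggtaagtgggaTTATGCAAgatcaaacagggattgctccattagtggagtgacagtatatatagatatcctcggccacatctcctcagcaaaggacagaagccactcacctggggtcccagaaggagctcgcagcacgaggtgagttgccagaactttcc
Lcn2: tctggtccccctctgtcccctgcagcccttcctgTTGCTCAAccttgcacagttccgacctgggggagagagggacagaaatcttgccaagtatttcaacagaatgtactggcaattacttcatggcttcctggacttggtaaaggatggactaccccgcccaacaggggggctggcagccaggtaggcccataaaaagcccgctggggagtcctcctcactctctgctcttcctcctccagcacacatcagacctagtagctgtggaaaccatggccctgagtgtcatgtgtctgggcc
Chi3l1 (chr1:134181906-134182205, plus strand) had 1 NF-kB match, a window that meets the consensus on both strands, and Steap4 (chr5:7960222-7960521, plus strand) had matches to all 3 motifs.
Chi3l1: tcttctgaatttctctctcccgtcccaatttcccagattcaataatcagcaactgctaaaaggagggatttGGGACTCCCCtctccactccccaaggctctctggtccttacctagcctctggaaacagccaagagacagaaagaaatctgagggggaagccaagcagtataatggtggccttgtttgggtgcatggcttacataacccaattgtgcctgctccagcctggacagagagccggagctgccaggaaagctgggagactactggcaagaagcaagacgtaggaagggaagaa
Steap4: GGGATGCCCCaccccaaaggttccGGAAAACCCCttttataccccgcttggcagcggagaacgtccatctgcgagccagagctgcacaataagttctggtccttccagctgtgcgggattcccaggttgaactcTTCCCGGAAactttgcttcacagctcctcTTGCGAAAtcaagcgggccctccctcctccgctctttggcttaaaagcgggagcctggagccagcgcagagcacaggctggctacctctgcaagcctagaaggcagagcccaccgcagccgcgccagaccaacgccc
In all, 6 of the 7 members had a C/EBP match (in Cp at the second start only), 2 an NF-kB match and 1 a STAT match. Among all 32817 mouse promoters of the same length, 10.8% held the C/EBP letters, 8.46% the NF-kB consensus and 8.29% the STAT letters. Matches of different motifs do not overlap in any member, and a match describes the letters of the window, not a bound site.

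At P1.5, 8 of the 9 genes were higher in both GFP/GFP libraries than in both +/+ libraries, and Cp was the exception. No overlap in this direction was found for 12.6% of all genes tested, and since the genes were chosen with this contrast in view, nothing is read from the count. Before birth the picture was different, with no member higher in both GFP/GFP libraries and 5 lower in both (Saa3, Lcn2, Cp, Steap4 and Chi3l1), against 26.5% and 9.46% of all genes. The 9 genes took 0.0997% and 0.107% of all reads in E18.5 +/+, 0.0222% and 0.0860% in E18.5 GFP/GFP, 0.148% and 0.0972% in P1.5 +/+, and 0.369% and 0.548% in P1.5 GFP/GFP. The share was therefore highest in both P1.5 GFP/GFP libraries and lowest in replicate 1 of E18.5 GFP/GFP.

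**Figure D1:**
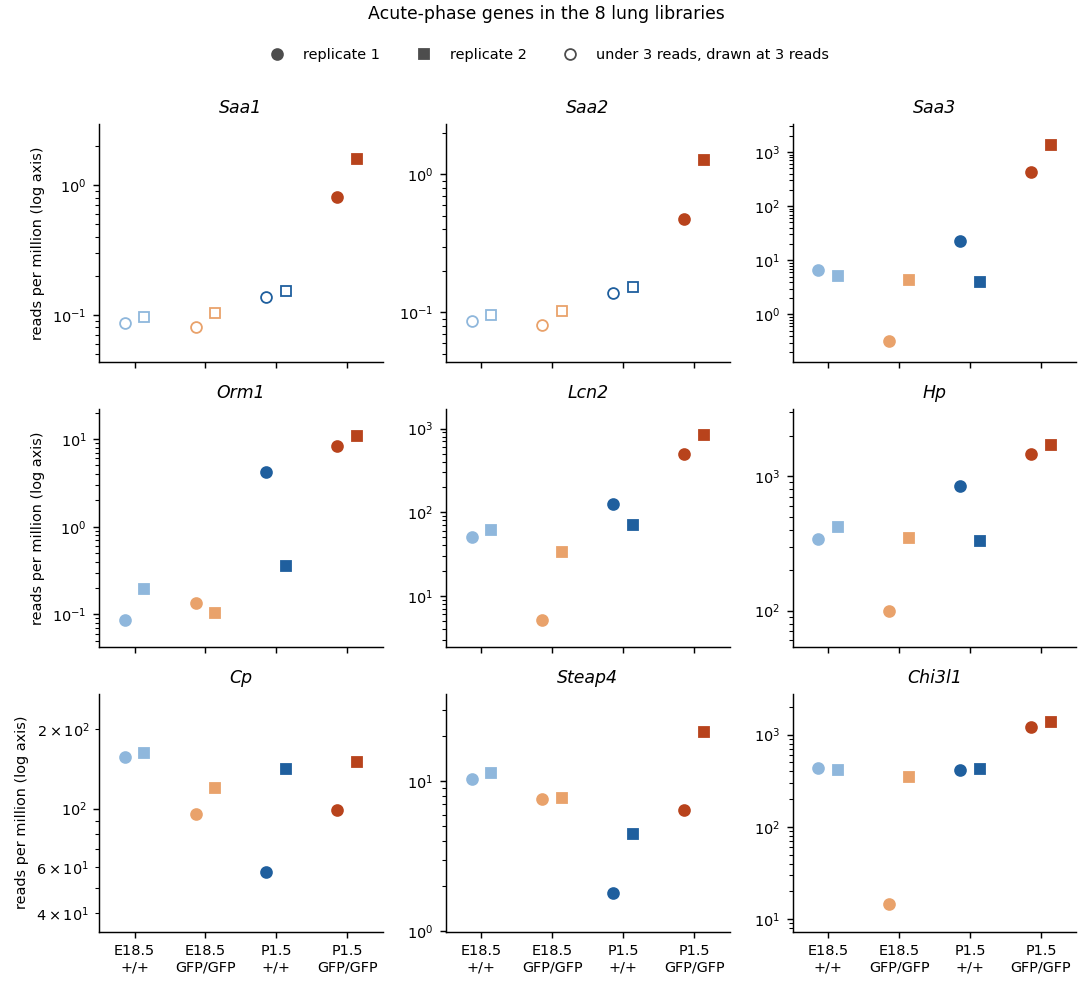
RPM of each gene (y axis, log scale) in the 8 lung libraries, grouped by stage and Wfdc2 genotype (x axis), with circles for replicate 1, squares for replicate 2 and open symbols at the level of 3 reads for libraries with fewer. For every gene but Cp the 2 P1.5 GFP/GFP libraries lie above the 2 P1.5 +/+ libraries, and replicate 1 of E18.5 GFP/GFP is the lowest library for Saa3, Lcn2, Hp and Chi3l1.

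**Figure D2:**
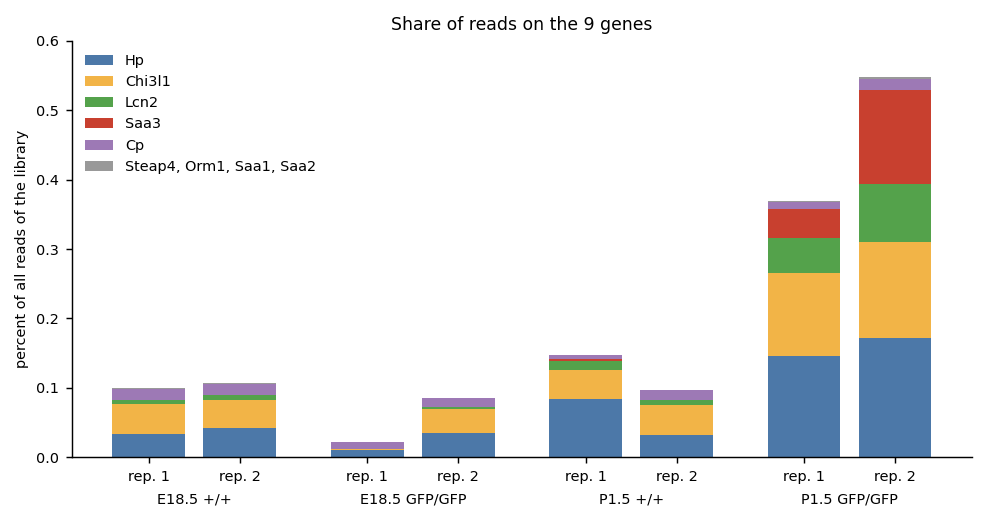
Share of all reads of a library (y axis, percent) on the 9 genes, stacked by gene, for the 8 libraries (x axis). The total reaches 0.369% and 0.548% in P1.5 GFP/GFP, and the Saa3 segment, hardly visible elsewhere, is 11.4% and 24.9% of the stack there.

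Saa3 encodes the serum amyloid A protein made outside the liver, in mice a product of epithelium, macrophages and adipocytes. It had 6.54 and 5.10 RPM in E18.5 +/+, 0.323 and 4.31 RPM in E18.5 GFP/GFP, 22.5 and 3.96 RPM in P1.5 +/+, and 422 and 1365 RPM in P1.5 GFP/GFP. All other libraries were thus far below the 2 P1.5 GFP/GFP libraries, and the P1.5 controls themselves differed by more than the E18.5 controls. The difference at P1.5 was 6.33 ± 1.25 on the log2 scale (standard error of the fit, n = 2 and 2), which is 80.4-fold. It was 7.58 without replicate 1 of P1.5 +/+ and 5.07 without replicate 2. At E18.5 the difference was -2.29, of which -0.42 was left without replicate 1 of E18.5 GFP/GFP. Saa3 made up 0.655% and 0.475% of the reads of the 9 genes in E18.5 +/+, and 11.4% and 24.9% in P1.5 GFP/GFP.

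Saa1 and Saa2 encode the serum amyloid A proteins that the liver releases into plasma in the acute phase. Saa1 had 0 and 1 reads in E18.5 +/+, 0 and 2 in E18.5 GFP/GFP, 1 and 0 in P1.5 +/+, and 19 and 47 in P1.5 GFP/GFP. Saa2 had 0 and 1 reads in E18.5 +/+, none in E18.5 GFP/GFP or P1.5 +/+, and 11 and 37 in P1.5 GFP/GFP. Both genes were therefore detected in P1.5 GFP/GFP lungs only, and passed the filter on low values only through that group. Against the limit of 3 reads per library in P1.5 +/+, Saa1 was at least 7.87-fold higher and Saa2 at least 5.31-fold higher. These bounds use the mean of both P1.5 GFP/GFP libraries. Replicate 1 lay nearer the limit, with 0.820 RPM for Saa1 and 0.475 RPM for Saa2, against 1.61 and 1.26 RPM in replicate 2. Their counts are uncertain, since 24.6% of the 36-base words of the Saa1 coding transcripts and 18.9% of those of Saa2 occur in another gene, chiefly in each other, and how reads with more than 1 match were treated is not given in the sources used here. For Saa3 the share was 6.82%, and it was 1.16% for Cp and 0 for Lcn2, Hp, Chi3l1 and Steap4.

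Orm1 encodes orosomucoid, or alpha-1-acid glycoprotein, a plasma carrier of drugs and lipids. It had 3 and 6 reads in E18.5 +/+, 5 and 3 in E18.5 GFP/GFP, 91 and 7 in P1.5 +/+, and 194 and 317 in P1.5 GFP/GFP. The gene was thus at the limit of detection before birth in both genotypes, and its P1.5 controls differed more from each other than those of any other member. In RPM the P1.5 values were 4.19 and 0.360 in +/+ and 8.38 and 10.8 in GFP/GFP, with no overlap. The log2 difference was 2.96 ± 1.02, or 7.76-fold, and was 1.19 without replicate 2 of P1.5 +/+ and 4.73 without replicate 1. In its transcripts 25.7% of the 36-base words were shared with its neighbour Orm2, so part of these reads may belong to that gene.

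Lcn2 encodes lipocalin 2, which binds bacterial siderophores and so keeps iron from microbes. It had 50.3 and 61.7 RPM in E18.5 +/+, 5.08 and 33.3 RPM in E18.5 GFP/GFP, 127 and 70.7 RPM in P1.5 +/+, and 494 and 832 RPM in P1.5 GFP/GFP. The 2 genotypes did not overlap at either stage, with GFP/GFP below the controls at E18.5 and above them at P1.5. The log2 difference was 2.76 ± 0.79 at P1.5, or 6.77-fold, and between 2.34 and 3.18 with a library left out. At E18.5 it was -2.10, and -0.74 without replicate 1 of E18.5 GFP/GFP.

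Hp encodes haptoglobin, which captures free haemoglobin. It was the most abundant member per exonic length in all 8 libraries. Its values were 341 and 418 RPM in E18.5 +/+, 99.3 and 348 RPM in E18.5 GFP/GFP, 844 and 328 RPM in P1.5 +/+, and 1459 and 1720 RPM in P1.5 GFP/GFP. Both P1.5 GFP/GFP libraries were above all others, but the gap to replicate 1 of P1.5 +/+ was much smaller than that to replicate 2. The log2 difference at P1.5 was 1.59 ± 0.65 (3.01-fold), 0.91 without replicate 2 of P1.5 +/+ and 2.27 without replicate 1. The difference of -1.02 at E18.5, where the groups overlapped, was -0.11 without replicate 1 of E18.5 GFP/GFP.

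Steap4 encodes a membrane reductase of ferric iron and copper that is induced by inflammatory cytokines. It had 10.4 and 11.4 RPM in E18.5 +/+, 7.58 and 7.76 RPM in E18.5 GFP/GFP, 1.80 and 4.47 RPM in P1.5 +/+, and 6.43 and 21.2 RPM in P1.5 GFP/GFP. Like Cp, Steap4 was lower in both P1.5 controls than in both E18.5 controls, by -1.95 ± 0.65 on the log2 scale (-1.29 without replicate 1 of P1.5 +/+ and -2.60 without replicate 2). The genotypes differed by 2.04 ± 0.65 at P1.5 (4.12-fold), between 1.18 and 2.90 with a library left out. With a pseudocount of 1 RPKM this difference was 0.485. Replicate 1 of P1.5 GFP/GFP was below both E18.5 +/+ libraries. In GFP/GFP lungs the change from E18.5 to P1.5 was 0.61, beside the -1.95 in +/+.

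Cp encodes ceruloplasmin, a copper-carrying ferroxidase of plasma that the lung epithelium also makes. It had 156 and 162 RPM in E18.5 +/+, 95.1 and 120 RPM in E18.5 GFP/GFP, 57.3 and 142 RPM in P1.5 +/+, and 98.9 and 150 RPM in P1.5 GFP/GFP. The P1.5 genotypes overlapped, and the log2 difference of 0.43 ± 0.46 turned to -0.22 without replicate 1 of P1.5 +/+ and was 1.09 without replicate 2. At E18.5 both GFP/GFP libraries were lower than both controls, by -0.58, and this difference depended little on any library, lying between -0.74 and -0.41 with each left out. Over all 8 libraries Cp varied least of the members, 2.83-fold from the lowest to the highest.

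Chi3l1 (Chil1 in current annotation) encodes the chitinase-like protein YKL-40, also called BRP-39 in the mouse, which binds chitin without cleaving it and is secreted by epithelium and macrophages. It had 433 and 415 RPM in E18.5 +/+, 14.7 and 347 RPM in E18.5 GFP/GFP, 419 and 423 RPM in P1.5 +/+, and 1200 and 1379 RPM in P1.5 GFP/GFP. The 4 control libraries were within a few percent of each other at both stages, and Chi3l1 had the most even P1.5 controls of the members above the limit of detection. The log2 difference at P1.5 was 1.61 ± 1.18 (3.06-fold) and lay between 1.51 and 1.71 with each library left out. The wide standard error came from the pooled spread of the 4 groups, in which the 2 E18.5 GFP/GFP libraries had an SD of 3.22 against 0.14 in P1.5 GFP/GFP and 0.01 in P1.5 +/+. At E18.5 the difference was -2.57, and -0.29 without replicate 1 of E18.5 GFP/GFP.

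**Figure D3:**
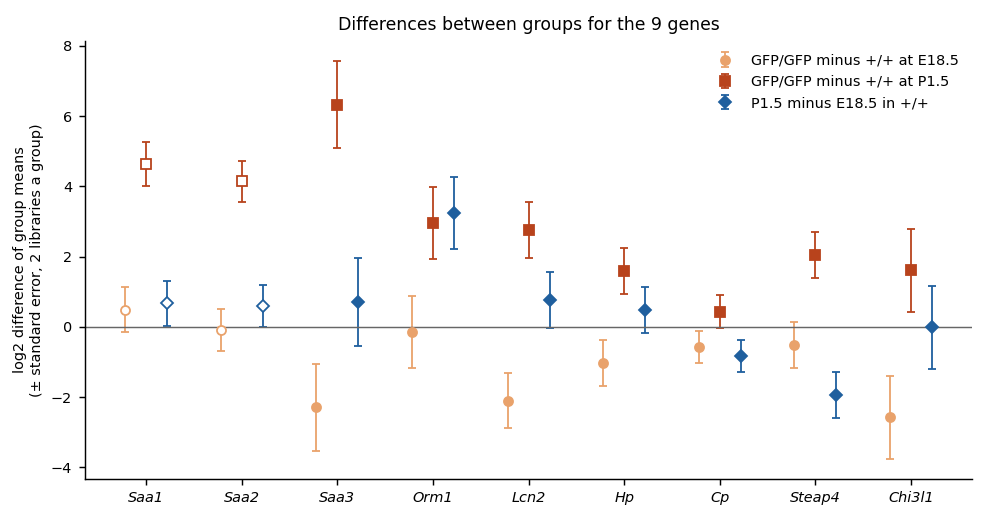
Log2 difference between group means (y axis, with standard errors of the fit, 2 libraries a group) for each of the 9 genes (x axis), for GFP/GFP against +/+ at each stage and for P1.5 against E18.5 in +/+, with open symbols for Saa1 and Saa2, whose controls had at most 1 read. At P1.5 the differences run from 0.43 for Cp to 6.33 for Saa3, and at E18.5 from -2.57 for Chi3l1 to 0.49 for Saa1.

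With all 8 libraries no member passed an adjusted p-value of 0.05 in any of the 3 comparisons, nor for the genotype difference between the stages. The genes called were 2 of the 15627 at P1.5 (0.0128%), 3 at E18.5 (0.0192%), 9 between the stages in +/+ (0.0576%) and 0 for the difference between the stages (0%), by limma with Benjamini-Hochberg adjustment. Leaving out replicate 2 of P1.5 +/+ left 1 library in that group, which was assumed to vary like the others. The stage differences in +/+ were then 5.02 for Orm1, -1.47 for Cp and -2.60 for Steap4. Calls of members in that fit are not read, since the members carry no test. With 2 libraries against 2 an exact two-sided permutation test cannot go below p = 0.33. The median of the 9 log2 differences was 2.76 at P1.5, with all 9 above 0, beside -0.20 over all genes tested. It was 2.41 when Saa1 and Saa2 were set to their lower bounds. At E18.5 the median was -0.58, beside 0.09 over all genes, and it was -0.34 without replicate 1 of E18.5 GFP/GFP. Saa1, Saa2 and Orm1 were at or near the limit of detection at this stage, so that their signs are not counted, and the other 6 members were all below 0, with a median of -1.56 that was -0.42 without that library. With each library centred on its own median, which took up the shift of all genes, the median of the members was 2.96 at P1.5 and -0.79 at E18.5.

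Between E18.5 and P1.5 in +/+, the step of several members depended on which P1.5 control was used. Of the 9, the deposited values of 4 were higher at P1.5 without overlap (Saa1, Saa2, Lcn2 and Orm1). Those of 2 were lower (Cp and Steap4), against 27.4% and 28.2% of all genes. Saa1 and Saa2 had at most 1 read in each of these libraries. Their order reflects library totals and the value that stands in for no read, so it is not read as a change. The log2 difference was 3.25 ± 1.02 for Orm1, and it was 1.47 without replicate 1 of P1.5 +/+ and 5.02 without replicate 2. For Saa3 it was 0.71, and -0.54 and 1.96 without these libraries in turn, and for Hp it was 0.48, and -0.20 and 1.16, so that both genes changed sign. Lcn2 had 0.77, and 0.34 and 1.19, and Cp had -0.82, and -0.17 and -1.47. Chi3l1 had -0.01 and stayed within 0.01 of it. In GFP/GFP lungs the same step was 9.33 for Saa3, 6.34 for Orm1, 5.62 for Lcn2, 4.17 for Chi3l1, 3.09 for Hp, 0.61 for Steap4 and 0.19 for Cp, and without replicate 1 of E18.5 GFP/GFP it was 7.46 for Saa3, 4.27 for Lcn2, 2.18 for Hp, 1.89 for Chi3l1 and 0.02 for Cp. The genotype differences of the members at P1.5 exceeded those at E18.5 by 8.62 for Saa3, 4.86 for Lcn2, 4.18 for Chi3l1 and 2.55 for Steap4, the members whose genotypes did not overlap at either stage and lay in opposite order. Without replicate 1 of E18.5 GFP/GFP these values were 6.75, 3.5, 1.90 and 2.53. Over all genes, 2.18% had a more positive and 8.06% a more negative genotype difference at P1.5 than at E18.5 at an unadjusted p under 0.05, and with these members open to choice by this contrast nothing is read from that.

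Levels of different genes were compared as RPM per kilobase of exon. In P1.5 GFP/GFP the order of the means was Hp (1182), Lcn2 (724), Chi3l1 (665), Saa3 (343), Cp (21.5), Orm1 (12.4), Steap4 (4.37), Saa1 (1.99) and Saa2 (1.33). Lcn2 and Chi3l1, Steap4 and Saa1, and Saa1 and Saa2 were neighbours whose replicates overlapped. In P1.5 +/+ the order was Hp (436), Chi3l1 (217), Lcn2 (108), Cp (17.2), Saa3 (5.08), Orm1 (2.94) and Steap4 (0.993), so that Saa3 stood below Cp in the controls and above it in P1.5 GFP/GFP. The replicates of Saa3 and Orm1, and of Orm1 and Steap4, overlapped in the controls. From the lowest to the highest library the members varied 4232-fold for Saa3, 164-fold for Lcn2, 124-fold for Orm1, 93.7-fold for Chi3l1, 17.3-fold for Hp, 11.8-fold for Steap4 and 2.83-fold for Cp.

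Over the 8 libraries the members fell into 2 sets. Among Saa3, Lcn2, Hp, Orm1 and Chi3l1 the 10 pairs had Pearson correlations of log2 values between 0.58 and 0.98, with a median of 0.88. Cp and Steap4 had between -0.37 and 0.25 with these genes and 0.80 with each other. The 15 pairs with Saa1 or Saa2 are not read, since these genes had at most 2 reads in 6 of the libraries. These are descriptions of genes chosen on the same values, over 8 libraries that share stage, genotype and depth. Replicate 2 of P1.5 GFP/GFP was above replicate 1 in 9 of 9 members, with a median difference of 0.75 on the log2 scale beside 0.20 over all genes, and replicate 2 of E18.5 GFP/GFP was above replicate 1 in all 6 members that were over the limit of detection in every E18.5 library, with a median of 2.26 beside 0.03. The mean standardized level of the 9 genes was 1.41 and 0.85 in the P1.5 GFP/GFP libraries and between -1.11 and -0.09 in the others.
The 10 genes whose profile over the 8 libraries was most like this mean, of 13821 compared, were Prdx1 (r = 0.99), S100a4, Pop7, Cox5a, Ptpmt1, Tsfm, Usp39, Slamf9, Sod2 and Slc5a1 (r = 0.97). Prdx1 and Sod2 encode antioxidant enzymes, a peroxiredoxin and the manganese superoxide dismutase of mitochondria. Prdx1 had 9461 and 8814 reads in P1.5 +/+ and 14617 and 20776 in P1.5 GFP/GFP, with a log2 difference of 0.59. Sod2 had 1354 and 1118 reads in P1.5 +/+ and 3114 and 7408 in P1.5 GFP/GFP, with a log2 difference of 1.62. The other 8 differed by 0.72 to 2.17. All 10 were picked for likeness to a mean that includes Saa1 and Saa2 and is highest in P1.5 GFP/GFP. Their differences at P1.5 are therefore a description and carry no test.

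Close relatives of the members gave other values. Of 11 paralogues found, 6 passed the filter on low values, and in none of these did the P1.5 genotypes separate, with a median log2 difference of -0.35 that was 0.23 without replicate 1 of P1.5 +/+. In the chitinase-like family, Chi3l3 had 1856 and 211 reads in P1.5 +/+ and 488 and 343 in GFP/GFP, and the acidic chitinase gene Chia had 3276 and 460 reads against 1298 and 1401, so that for both genes replicate 1 of P1.5 +/+ was the highest library. Chi3l4 was at 0 in every library but those of P1.5 GFP/GFP, which had 7 and 8 reads.
Saa4, the constitutive member of the serum amyloid A cluster, had between 1 and 7 reads in the other libraries and 10 and 6 in P1.5 GFP/GFP. Orm2 had 5 and 0 reads in P1.5 +/+ and 5 and 21 in GFP/GFP, and Orm3 had 6 and 0 against 4 and 29. Among relatives of Steap4, Steap1 had 38 and 39 reads in P1.5 +/+ and 48 and 51 in GFP/GFP, Steap2 168 and 240 against 125 and 260, and Steap3 85 and 87 against 37 and 97. Of the ferroxidases akin to Cp, Heph had 153 and 487 reads in P1.5 +/+ against 173 and 317, and Hephl1 had at most 3 reads in any library.

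The other acute-phase genes varied in direction. This list and those below were chosen with earlier results of these data known, so nothing is read from their counts. Of 22 on the list, 19 were tested and none passed the adjusted threshold at either stage. At P1.5, 7 were higher and 2 lower at an unadjusted p under 0.05, beside 3.61% and 7.33% of all genes, and the median log2 difference was 1.18. Without replicate 1 of P1.5 +/+ the median was 0.62, and without replicate 2 it was 0.93. These fits leave 1 library in that group, so only the medians of the gene lists are given for them. The same omissions moved the median of all genes from -0.20 to -0.44 and 0.10. Lrg1, a secreted leucine-rich glycoprotein, had 367 and 67 reads in P1.5 +/+ and 1301 and 2345 in GFP/GFP (3.14 ± 1.02, adjusted p = 0.35, limma). Serpina3n, a serine protease inhibitor, had 571 and 24 reads against 997 and 2110 (3.29 ± 1.31), the inter-alpha-inhibitor chain Itih4 204 and 220 against 681 and 2515 (2.29 ± 0.90), and complement C4b 95 and 311 against 671 and 920 (1.85 ± 0.74). Without replicate 2 of P1.5 +/+ the difference was 1.08 for Serpina3n and 1.99 for Lrg1, and without replicate 1 it was 5.50 and 4.28, whereas C4b had 2.79 and 0.92.
Hpx, which encodes the haem carrier hemopexin and was picked out after its values were seen, went the other way, with 112 and 150 reads in P1.5 +/+ and 49 and 45 in P1.5 GFP/GFP (-1.81). Its partner among the members, Hp, was higher in the same libraries. The liver genes Fgb, Crp and Apcs, also named after their values were seen, had 0 reads in both P1.5 GFP/GFP libraries and 73, 9 and 9 reads in replicate 2 of P1.5 +/+, but only 0, 0 and 1 in replicate 1.

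Of the cytokines that induce the members and their receptors, 14 of 18 were tested, 3 were higher and 1 lower at P1.5 at an unadjusted p under 0.05, beside 3.61% and 7.33% of all genes, and none passed the adjusted threshold. Their median was 0.76, with 0.25 without replicate 1 of P1.5 +/+ and 0.96 without replicate 2. Il6, the main inducer of hepatic acute-phase genes, had 6 and 6 reads in P1.5 +/+ and 19 and 161 in P1.5 GFP/GFP (2.86 ± 0.87, adjusted p = 0.34, limma). Il1b had 31 and 70 reads against 147 and 701 (2.44 ± 1.22, and 1.78 without replicate 1 of P1.5 +/+ and 3.11 without replicate 2). The receptor chain Il6ra had 387 and 230 reads against 110 and 87 (-1.95 ± 0.55), and Il17ra, which carries the interleukin 17 signal to epithelium, had 221 and 303 against 644 and 1472 (1.57 ± 0.41). Il22, an inducer of epithelial Saa and Lcn2 genes that was named after its values were seen, had 0 reads in all 8 libraries.
For the STAT3, NF-kB and C/EBP factors and their feedback genes, 17 of 18 were found and tested, and Cebpd was not analysed here. At an unadjusted p under 0.05, 1 was higher and 1 lower at P1.5, beside 3.61% and 7.33% of all genes, and none was called at the adjusted threshold. The median was 0.35. Without replicate 1 of P1.5 +/+ the median was 0.094, and without replicate 2 it was 0.63. Relb, a subunit of NF-kB, had 402 and 331 reads in P1.5 +/+ and 918 and 1244 in GFP/GFP (1.21 ± 0.37). The kinase gene Tyk2 had 362 and 727 against 207 and 375 (-1.22 ± 0.45), and in RPM both GFP/GFP libraries were below both controls. The difference for Tyk2 was -1.80 without replicate 1 of P1.5 +/+ and -0.64 without replicate 2. Socs3, a feedback inhibitor of STAT3 signalling, had 556 and 515 against 794 and 2277 (0.99 ± 0.54), and Bcl3, a nuclear cofactor of NF-kB, 152 and 162 against 207 and 781 (1.02 ± 0.59).

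The iron, copper and haem partners of Lcn2, Hp, Cp and Steap4 lay around the median of all genes. Of 17 tested, 1 was higher and 1 lower at P1.5 at an unadjusted p under 0.05, beside 3.61% and 7.33% of all genes, with a median log2 difference of -0.13 beside -0.20. Without replicate 1 of P1.5 +/+ the median was -0.35, and without replicate 2 it was 0.19. Tfrc, the transferrin receptor, had 702 and 482 reads in P1.5 +/+ and 1722 and 2839 in GFP/GFP (1.59 ± 0.52), and Atp7b, which loads copper onto ceruloplasmin, had 810 and 558 against 169 and 430 (-1.66 ± 0.45). Cd163, the receptor for haptoglobin bound to haemoglobin, had 112 and 110 against 84 and 79 (-0.79 ± 0.53), and Lrp1, the receptor for hemopexin, 6297 and 4528 against 4048 and 5554 (-0.51 ± 0.36). In RPM, Lrp1 was lower in both P1.5 GFP/GFP libraries than in both controls.
Of the receptors of serum amyloid A and YKL-40, 8 of 9 were tested, with 1 higher and 1 lower at P1.5 at an unadjusted p under 0.05, beside 3.61% and 7.33% of all genes. Their median log2 difference was 0.03, with -0.06 without replicate 1 of P1.5 +/+ and 0.12 without replicate 2. Fpr1, a formyl peptide receptor of neutrophils, had 139 and 164 reads in P1.5 +/+ and 40 and 82 in GFP/GFP (-1.74 ± 0.40, adjusted p = 0.27, limma), and Tlr2 had 186 and 199 against 331 and 708 (0.99 ± 0.37). The scavenger receptor Cd36 had 5505 and 8052 against 10946 and 14816 (0.59 ± 0.33).

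Most genes of inducible epithelial defence lay above 0 at P1.5. Of 18 genes 15 were tested, 13 lay above 0 and 5 were higher and none lower at an unadjusted p under 0.05, beside 3.61% and 7.33% of all genes, with a median of 1.73, and none passed the adjusted threshold. This list, too, was chosen with earlier results known, and its named genes for their P1.5 differences, so nothing is read from these counts. Without replicate 2 of P1.5 +/+ the median was 1.30, and without replicate 1 it was 1.68. Slpi, the secretory leukocyte protease inhibitor and a relative of Wfdc2, had 1886 and 296 reads in P1.5 +/+ and 4708 and 7406 in GFP/GFP (2.64 ± 0.86, and 1.38 without replicate 2 of P1.5 +/+ and 3.90 without replicate 1). The neutrophil attractant Cxcl1 had 12 and 7 against 43 and 219 (3.06 ± 0.77), the antibacterial lectin gene Reg3g 506 and 236 against 1609 and 1825 (1.97 ± 0.48), and Sftpd, for surfactant protein D, 19694 and 13562 against 69273 and 88241 (1.92 ± 0.69). From E18.5 to P1.5 the log2 difference of Reg3g was -2.51 in +/+ and -0.08 in GFP/GFP, so it did not rise over birth in either genotype. At E18.5 the list had a median of -0.46, with 1 gene lower and none higher at an unadjusted p under 0.05, beside 0.595% and 3.78% of all genes, and that median was -0.0045 without replicate 1 of E18.5 GFP/GFP.

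**Figure D4:**
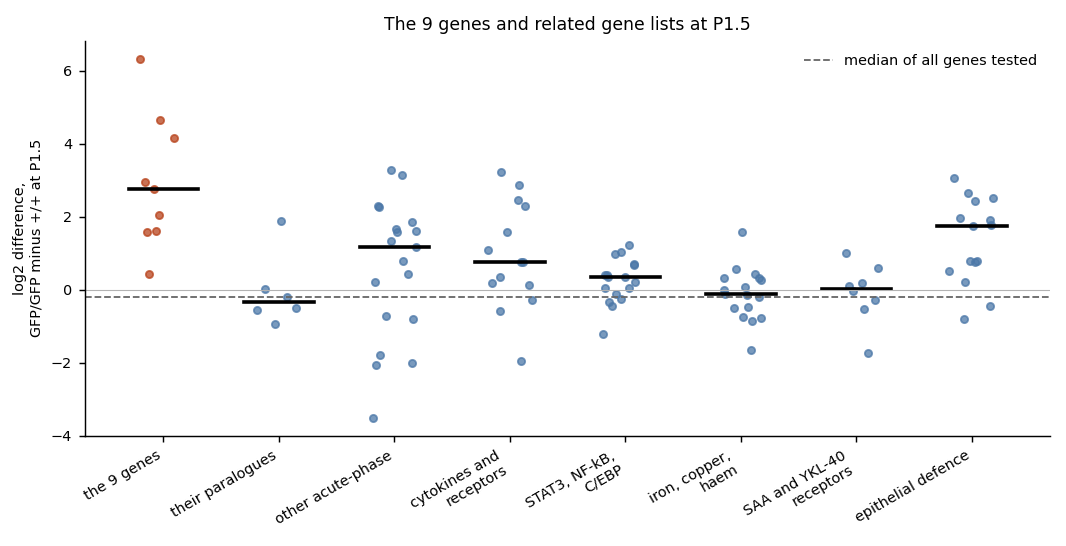
Log2 difference between GFP/GFP and +/+ at P1.5 (y axis) for each tested gene of the 9 members and of 7 related gene lists (x axis), with black bars at the list medians and a dashed line at the median of all genes. The medians run from -0.35 for the paralogues to 1.73 for epithelial defence genes, beside 2.76 for the 9 members, which were chosen with these values in view.

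Markers of cell types that could supply RNA of the members were read in the same libraries. Hepatocyte markers, summed over 11 genes as RPM per exonic kilobase, were 12.8 and 68.4 in P1.5 +/+ and 4.45 and 4.58 in P1.5 GFP/GFP, where the most abundant was Apoa2. Albumin had 13 and 29 reads and the liver serpins Serpina1b and Serpina1d had 0 reads in both P1.5 GFP/GFP libraries, those with the highest Saa1, Saa2, Hp and Orm1. All 11 hepatocyte markers were over the limit of detection only in replicate 2 of P1.5 +/+, where Hp had 328 RPM against 844 RPM in replicate 1.
Neutrophils carry lipocalin 2 and haptoglobin in their granules. The 12 neutrophil markers summed to 3430 and 1002 in P1.5 +/+ and 2472 and 1592 in P1.5 GFP/GFP, led by S100a8 or S100a9, and 84.7 to 140 at E18.5. The P1.5 genotypes overlapped for 11 of 12 of these genes, and replicate 1 of P1.5 +/+, which had the higher Lcn2, Hp, Saa3 and Orm1 of the 2 controls, also had the higher neutrophil sum. Within P1.5 GFP/GFP the order was opposite, with the higher neutrophil sum in replicate 1 and the higher level of all 9 members in replicate 2. Between the stages in +/+, 11 of 12 neutrophil markers were higher at an unadjusted p under 0.05, beside 6.9% of all genes (4.93% were lower).
Macrophage and monocyte markers, led by Lyz2, summed to 553 and 873 in P1.5 +/+ and to 1007 and 1010 in P1.5 GFP/GFP, and 4 of 11 were higher without overlap and none lower, beside 12.6% and 26.9% of all genes. These were Cd68, Fcgr1, Ly6c2 and Lyz2, of which the monocyte gene Ly6c2 had 71 and 134 reads in P1.5 +/+ and 351 and 410 in GFP/GFP. The alveolar macrophage genes Itgax and Marco overlapped between the genotypes.
Epithelial markers, led by Krt19 except in replicate 2 of P1.5 GFP/GFP, summed to 1752 and 577 in P1.5 +/+ and to 1341 and 1260.3 in P1.5 GFP/GFP, with overlap. Of the 6 genes 3, Epcam, Krt8 and Krt18, were higher without overlap and none lower, beside 12.6% and 26.9% of all genes. Krt8 had 538 and 199 RPM in P1.5 +/+ and 672 and 727 RPM in GFP/GFP.
Alveolar type II cell markers summed to 69023 and 32200 in P1.5 +/+ and 80589 and 57424 in P1.5 GFP/GFP, with overlap. Sftpc made up most of each sum (67826, 30274, 78705 and 55705 in the same order). Of the 6 genes 1, Lamp3, was higher without overlap and 1, Abca3, lower, beside 12.6% and 26.9% of all genes. Club cell markers summed to 29690 and 14384 against 16675 and 15395, also with overlap. Of the 4 club cell genes 2, Cyp2f2 and Cldn10, were lower without overlap and none higher, beside 26.9% and 12.6% of all genes. Fibroblast markers were 164 and 1093 in P1.5 +/+ and 229 and 328 in P1.5 GFP/GFP, so in this sum the 2 controls differed more than the genotypes. Of the 5 genes 1, Pdgfra, was lower without overlap and none higher, beside 26.9% and 12.6% of all genes. Pdgfra had 79.6 and 89.5 RPM in P1.5 +/+ and 32.3 and 51.0 RPM in P1.5 GFP/GFP. Adipocyte markers, read because adipocytes make Saa3, were low, with 0 reads of Lep in all libraries and at most 18 of Adipoq. Plin1 had 2 and 6 reads in P1.5 +/+ and 13 and 15 in P1.5 GFP/GFP, and Cidec, the most abundant of the 4 at P1.5, had 13 and 45 against 17 and 49. At E18.5, replicate 1 of GFP/GFP, lowest in Saa3, Lcn2, Hp and Chi3l1, was also lowest in the sums of alveolar type II (9107), club cell (738) and macrophage markers (105) and highest in that of fibroblast markers (1008). Sftpc made up most of that type II sum (8136), and not every single marker was lowest there. Abca3 (67.7) and Cldn10 (31.8) were above their levels in replicate 1 of E18.5 +/+ (61.3 and 30.6). The part of these cell types in the values of the members was not tested.

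**Figure D5:**
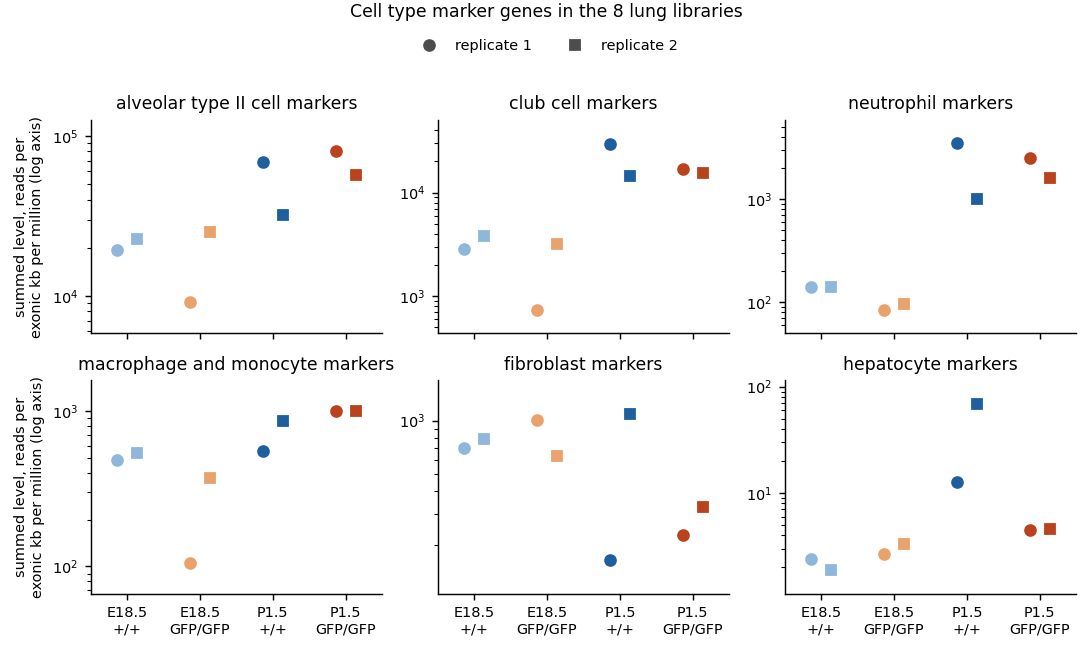
Summed level of marker genes of 6 cell types (y axis, RPM per exonic kilobase, log scale) in the 8 lung libraries by stage and genotype (x axis), with circles for replicate 1 and squares for replicate 2. At P1.5 hepatocyte markers are lower in both GFP/GFP libraries than in both controls, and the neutrophil, alveolar type II and fibroblast sums of the genotypes overlap.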

How the data were processed

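Lung RNA of Wfdc2 +/+ and GFP/GFP mice at E18.5 and P1.5 was measured in 8 libraries, grouped by the genotype and tissue labels. Per the labels and the study's methods, the authors made stranded libraries, trimmed the reads to 36 bases and by quality (Trim Galore 0.4.0 after CASAVA 1.8), mapped them to mm10 with TopHat2 2.1.1 and an mRNA annotation, and counted them in SeqMonk. Whether counting used strand, and which sequencer read which library, is not given in the sources used here. The deposited values are log2 RPKM, where the kilobases were found to be the full extent of each gene, introns counted, and where no read was found 0.9 read stands in. Whole reads per gene and library totals were recovered from the steps of these values (99.86 to 99.97% of values within 0.02 of a whole number). RPM divides those reads by the library total, and levels between genes use the exons of GENCODE M21 basic transcripts. Counting error and the limit of 3 reads cover counting only.

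Genes averaging 0.05 RPKM or more (15627) entered a linear model in limma 3.58.1 (R 4.3.3) on the deposited log2 values, without a pseudocount, with the 4 group means as coefficients, a trended prior and residual degrees of freedom of 4, and p-values were two-sided and adjusted by the Benjamini-Hochberg method over all genes at 0.05. A count model was not the primary test because the deposited unit is not counts, and limma's voom on the recovered reads was an alternative. The members and all gene lists were chosen with earlier results of these data known, so neither is independent of them. Named genes are the members and their paralogues, from each other pathway list the genes called in any contrast and up to 4 with the largest P1.5 difference among those with a mean of at least 20 reads and no overlap between genotypes, and the 10 genes most like the members. Nothing states that the 2 libraries of a group came from separate litters, so p-values measure the spread between these animals. Alternatives were pseudocounts of 0.1 and 1 RPKM, testing every gene or those averaging 0.5 RPKM or more, median centring, quantile normalization, a replicate block, voom, the libraries of a stage alone and each library left out. Setting Saa1 and Saa2 to their bounds and recomputing the members, lists and named genes without single libraries or without the members at the limit of detection were added after seeing the data. The fit was tested on simulated data. Summaries, motif searches and figures used Python 3.11.15, numpy 2.4.6, pandas 2.3.3 and matplotlib 3.10.9.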

Additional observations from a re-analysis of the deposited data

Results flagged for a closer look

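For 4 members the genotype difference had opposite order at the 2 stages, with both GFP/GFP libraries below both +/+ libraries at E18.5 and above both at P1.5. The difference at P1.5 minus that at E18.5, on the log2 scale, was 8.62 for Saa3, 4.86 for Lcn2, 4.18 for Chi3l1 and 2.55 for Steap4. These contrasts were open to the choice of the members, so they are a description. In the fit across all genes none of the 4 passed an adjusted p of 0.05, and apart from that the difference was not tested. Among all genes, 0 of 15627 passed an adjusted p of 0.05 for this difference with limma and 0 with voom, and at an unadjusted p under 0.05 limma had 340 genes with a more positive difference at P1.5 (2.18%) and 1259 with a more negative one (8.06%). Without replicate 1 of E18.5 GFP/GFP, the E18.5 part was -0.42 for Saa3, -0.74 for Lcn2 and -0.29 for Chi3l1.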

How the results depend on the processing

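With 2 libraries a group, the number of genes called was unstable, and the depth limited Saa1, Saa2 and Orm1, which had 6 reads or fewer in every E18.5 library. At P1.5 the 2 genes called became 11 and 5 with pseudocounts of 0.1 and 1 RPKM, 21 with no filter, and 0 with median centring, quantile normalization, voom or the stage alone. At E18.5 the 3 genes became 6 with a pseudocount of 0.1 RPKM, 22 with no filter, 1 with a mean of at least 0.5 RPKM or the stage alone, and 0 with median centring, quantile normalization or voom. Between the stages in +/+ the 9 genes became 16 and 17 with the pseudocounts, 35 with no filter, 52 with a mean of at least 0.5 RPKM, 5 with median centring, 49 with quantile normalization and 0 with voom. With each library left out the counts ran from 0 to 24 at P1.5 (24 without replicate 2 and 15 without replicate 1 of P1.5 +/+), from 0 to 1 at E18.5, from 0 to 2166 between the stages (2166 without replicate 2 of P1.5 +/+) and from 0 to 2 for the difference between the stages, which was 0 in the other alternatives.

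The replicate block gave 9 genes at P1.5, 1 at E18.5 and 105 between the stages. Same-numbered libraries deviated together (r = 0.23 at E18.5 and 0.21 at P1.5 over 15627 genes), but the numbers are not stated to mark litters, and the block left the members' differences unchanged and called no member.

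The members' median of 2.76 at P1.5 was 1.84 and 1.24 with pseudocounts of 0.1 and 1 RPKM, 2.19 over the 6 members with a mean of at least 0.5 RPKM, 2.96 with median centring, 2.42 with quantile normalization and 2.41 with Saa1 and Saa2 at their bounds, and it ran from 2.34 to 3.18 with each library left out. The -0.58 at E18.5 was -1.56 over those 6 members (Saa3, Lcn2, Hp, Orm1, Cp and Chi3l1), whose median was -0.37 without replicate 1 of E18.5 GFP/GFP. The 0.60 between the stages was the value of Saa2, which had at most 1 read in each +/+ library, so it rests on stand-in values. Over the same 6 members the median was 0.59. With all 9 it was 0.086 and 0.0098 with the pseudocounts and 0.86 with median centring. It ran from -0.0048 (without replicate 1 of P1.5 +/+) to 0.67 with each library left out. In every alternative at P1.5 the median of the members was above 0, and the exception among single members was Cp without replicate 1 of P1.5 +/+.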
